A study of Mus musculus with 4 samples.

Results

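The genes described here encode 10 enzymes and cofactors that place, copy, oxidize or remove methyl groups on cytosine in DNA: Dnmt1, Uhrf1, Dnmt3a, Dnmt3b, Tet1, Tet2, Tet3, Tdg, Mbd4 and Apex1. They were chosen by name, with earlier results of these data known, and all 10 were found among 20712 protein-coding genes in the deposited table. RNA levels come from stranded sequencing of total RNA. The cells were mouse embryonic fibroblasts (MEF), grown from C57BL/6 embryos at embryonic day 15.5 and immortalized. The groups were Hmga2+/+ Ctrl, Hmga2+/+ TGFB1, Hmga2-/- Ctrl and Hmga2-/- TGFB1, with 1 library in each. All cultures were starved overnight in medium with 1% FCS. The TGFB1 groups then received human recombinant TGFB1 at 10 ng/ml, for 24 h, and the Ctrl groups received water. Immortalized lines can carry changes from the immortalization, and the sources do not say how many lines stand behind each genotype. Values are RPKM, which scale the reads of a transcript for its length and for the depth of the library, so that levels of different genes are per length.

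In mammalian cells DNMT3A and DNMT3B place new methyl groups on CpG sites, while DNMT1 copies the pattern to the new strand after replication, guided by UHRF1, which binds hemimethylated DNA. The TET enzymes oxidize 5-methylcytosine stepwise to 5-hydroxymethylcytosine, 5-formylcytosine and 5-carboxylcytosine. TDG cuts out the last 2 of these bases, MBD4 removes thymine or uracil mispaired with guanine at CpG sites, and the endonuclease APEX1 then cleaves the abasic site so that base excision repair can restore an unmodified cytosine. RNA levels were measured in these libraries, and methylation itself was not.

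Promoter windows are shown for the genes whose RNA moved most on TGFB1 or with genotype (Tdg, Mbd4 and Tet1) and for Apex1, which acts directly after TDG. The windows were taken from RefSeq on GRCm38.p6 and run from 250 bases before the annotated start through the first 30 bases of the transcript, 5′ to 3′ on the strand of the gene. Capitals mark matches to any of 6 short motifs searched on both strands.
Tdg promoter, chr10:82629588-82629867, plus strand: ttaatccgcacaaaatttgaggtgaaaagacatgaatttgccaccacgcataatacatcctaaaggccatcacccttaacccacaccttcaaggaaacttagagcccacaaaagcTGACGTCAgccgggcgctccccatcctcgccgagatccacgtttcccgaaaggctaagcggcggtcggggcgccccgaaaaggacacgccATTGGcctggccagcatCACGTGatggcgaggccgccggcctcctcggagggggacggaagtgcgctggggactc
Apex1 promoter, chr14:50924699-50924978, plus strand: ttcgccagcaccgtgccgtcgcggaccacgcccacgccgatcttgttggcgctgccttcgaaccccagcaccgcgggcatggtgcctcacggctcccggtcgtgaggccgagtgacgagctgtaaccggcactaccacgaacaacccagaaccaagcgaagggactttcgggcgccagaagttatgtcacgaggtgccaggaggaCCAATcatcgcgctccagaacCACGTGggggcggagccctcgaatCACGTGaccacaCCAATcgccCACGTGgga
Mbd4 promoter, chr6:115853312-115853591, minus strand: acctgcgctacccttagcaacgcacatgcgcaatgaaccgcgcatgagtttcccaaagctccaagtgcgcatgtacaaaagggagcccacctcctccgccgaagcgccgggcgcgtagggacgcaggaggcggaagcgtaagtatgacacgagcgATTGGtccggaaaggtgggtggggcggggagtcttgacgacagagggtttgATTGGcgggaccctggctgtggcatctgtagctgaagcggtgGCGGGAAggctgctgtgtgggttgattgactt
Tet1 promoter, chr10:62887295-62887574, minus strand: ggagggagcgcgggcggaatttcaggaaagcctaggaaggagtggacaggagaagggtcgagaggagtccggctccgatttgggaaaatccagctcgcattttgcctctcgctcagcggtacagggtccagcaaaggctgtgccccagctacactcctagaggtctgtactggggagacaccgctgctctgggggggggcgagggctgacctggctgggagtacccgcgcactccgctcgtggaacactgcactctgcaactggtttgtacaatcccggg

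The motifs were the E-box CACGTG, the cAMP response element TGACGTCA, the CCAAT box CCAAT, the NRF1 core GCATGCGC, the E2F element GCGGGAA and the SMAD palindrome GTCTAGAC, and they were sought in windows of 250 bases before and 50 after each of 32851 RefSeq starts. The Tdg window held 1 cAMP response element at -135, 1 CCAAT box at -45 and 1 E-box at -28, counted from the start. Apex1 held 3 E-boxes, at -24, 1 and 22, while 7.15% of all promoters held at least 1. Mbd4 held CCAAT boxes at -95 and -44 and an E2F element that begins at -2. The Tet1 window held no match to any of the 6. Its RefSeq start, 62887324, is not the start of any Tet1 transcript counted here. The long Tet1 transcripts begin downstream of it, at 62880014. Of all promoters, 37.4% held a CCAAT box, 4.60% the E2F element, 2.71% the NRF1 core, 1.79% the cAMP response element and 0.213% the SMAD palindrome. Over all 15 promoters of the 10 genes, 8 held a CCAAT box, 3 an E-box, 2 the E2F element, 2 the NRF1 core, 1 the cAMP response element and 0 the SMAD palindrome. The NRF1 matches both lie at Dnmt1, and the third E-box promoter is the downstream start of Dnmt3a. A match is a description of the letters and not a binding site.

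The 4 libraries were of like depth, with 56140000 to 57300000 mapped reads derived from the steps of the RPKM values. Hmga2 had 14.8 RPKM in Hmga2+/+ Ctrl and 40.7 RPKM in Hmga2+/+ TGFB1, and 0 reads in both Hmga2-/- libraries. The TGFB1 targets Ctgf, Smad7 and Acta2 were each more than 1.5-fold higher on TGFB1 in both genotypes, with Ctgf at 13.2 and 173 RPKM in Hmga2+/+ Ctrl and TGFB1, and at 24.9 and 359 RPKM in Hmga2-/- Ctrl and TGFB1. The 10 fibroblast markers summed to between 1937 and 2327 RPKM, led by Vim, and none was at 0. Among them Lum stayed between 0.246 and 1.08 RPKM, and 5 of the 10 were more than 1.5-fold lower on TGFB1 in each genotype. Of 6 epithelial markers Krt19 alone exceeded 1 RPKM, and their sums were 2.62, 2.96, 5.35 and 5.77 RPKM in Hmga2+/+ Ctrl, Hmga2+/+ TGFB1, Hmga2-/- Ctrl and Hmga2-/- TGFB1. The 6 immune markers summed to between 1.29 and 1.66 RPKM, nearly all from Cd68, with Cd3e at 0. The 5 endothelial markers summed to between 3.89 and 8.16 RPKM from Kdr and Tek, with Pecam1 at or below 0.030 RPKM. On TGFB1 Kdr was higher, at 1.11 and 4.46 RPKM in Hmga2+/+ and 1.46 and 7.39 RPKM in Hmga2-/- Ctrl and TGFB1, and Tek was lower, at 2.75 and 0.330 and at 5.65 and 0.686 RPKM. The 7 pluripotent and germ cell markers summed to between 0.129 and 0.568 RPKM, with Pou5f1, Zfp42 and Dppa4 at 0. Ddx4, named after its values were seen, had the highest mean of these. It had 0.311, 0.143, 0.485 and 0.081 RPKM in Hmga2+/+ Ctrl, Hmga2+/+ TGFB1, Hmga2-/- Ctrl and Hmga2-/- TGFB1, from 49, 23, 77 and 13 reads. The part of these shifts in the results that follow was not tested. In bulk RNA, fewer cells that express a gene and less RNA per cell cannot be told apart.

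The methods of the study speak of duplicates from a single experiment, but the table gives 1 column per condition, so the spread between replicates cannot be seen and no p-value is given. Intervals are 95% intervals from the reads, cover counting error only and compare libraries rather than conditions. A change is counted when it reaches 1.5-fold, which is 0.58 on the log2 scale, and is set beside the share of 12428 protein-coding genes with a mean of at least 0.1 RPKM that reached it. All 10 genes passed this minimum.

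The maintenance pair was the most abundant of the 10. Dnmt1 (minus strand of chr9:20907206-20959888) had 55.6 RPKM in Hmga2+/+ Ctrl, 52.7 in Hmga2+/+ TGFB1, 50.4 in Hmga2-/- Ctrl and 46.9 in Hmga2-/- TGFB1. Uhrf1 (plus strand of chr17:56303337-56323486) had 39.1, 36.1, 35.8 and 33.4 RPKM in the same order. Both were highest in Hmga2+/+ Ctrl and lowest in Hmga2-/- TGFB1, and the whole range was 1.19-fold for Dnmt1 and 1.17-fold for Uhrf1. Their levels lay above those of 97.4% and 95.5% of protein-coding genes.

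The repair genes followed in level. Apex1 (plus strand of chr14:50924949-50927188) had 14.6 RPKM in Hmga2+/+ Ctrl, 17.3 in Hmga2+/+ TGFB1, 14.0 in Hmga2-/- Ctrl and 19.0 in Hmga2-/- TGFB1. Tdg (plus strand of chr10:82629838-82650494) had 5.99, 9.77, 5.61 and 8.78 RPKM in that order, and Mbd4 (minus strand of chr6:115840697-115853365) had 6.24, 3.85, 5.69 and 3.55 RPKM. In both TGFB1 libraries Apex1 and Tdg lay above, and Mbd4 below, both Ctrl libraries, so that the glycosylases Tdg and Mbd4 were at about the same level in Ctrl and apart on TGFB1.

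The de novo methyltransferases and the TET enzymes had lower means, though in Hmga2+/+ TGFB1 Tet2, Tet3 and Dnmt3a lay above Mbd4. Dnmt3a (plus strand of chr12:3806980-3914443) had 5.31 RPKM in Hmga2+/+ Ctrl, 3.96 in Hmga2+/+ TGFB1, 4.30 in Hmga2-/- Ctrl and 2.89 in Hmga2-/- TGFB1, and Dnmt3b (plus strand of chr2:153649449-153687730) had 0.966, 1.05, 0.913 and 0.907 RPKM. Tet2 (minus strand of chr3:133463677-133544390) had 5.34, 4.66, 4.37 and 3.20 RPKM, and Tet3 (minus strand of chr6:83362374-83456392) had 4.54, 4.29, 4.12 and 3.21 RPKM. Tet1 (minus strand of chr10:62804570-62880014), for which 3 reads correspond to well under 0.1 RPKM, had 0.683, 0.456, 0.596 and 0.249 RPKM, from 539, 367, 474 and 199 reads. By these transcripts Tet1 was the least abundant of the 10 in every library and had the widest range, 2.74-fold. Its short transcript uc056yhb.1, with 58 reads or fewer, had a mean of 1.94 RPKM, above the 1.03 RPKM of the highest transcript of Dnmt3b. It overlaps the first exon of the long transcript, so its reads can also come from that one.

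By mean level the order was Dnmt1, Uhrf1, Apex1, Tdg, Mbd4, Tet2, Dnmt3a, Tet3, Dnmt3b and Tet1. Counting intervals of neighbours overlapped in 2 libraries each for Tdg and Mbd4, for Mbd4 and Tet2 and for Tet2 and Dnmt3a, and in 3 libraries for Dnmt3a and Tet3. The other neighbours were apart in all 4 libraries. Hmga2-/- TGFB1 was the lowest library for 8 of the 10 genes, and Hmga2-/- Ctrl for Tdg and Apex1. How often each library was the lowest over all genes was not computed, so this count has no background beside it.

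**Figure D1:**
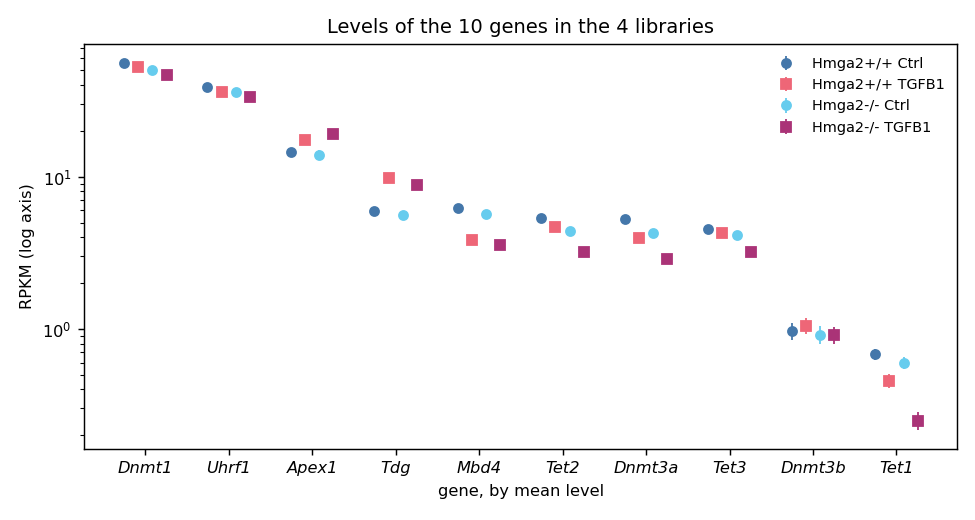
RPKM (log axis) of each of the 10 genes, ordered by mean level, in the 4 libraries; circles are Ctrl, squares are TGFB1, and bars are 95% intervals of the reads (counting error only). Tet1 falls to 0.249 RPKM in Hmga2-/- TGFB1, and Tdg and Mbd4 part in opposite directions in both TGFB1 libraries.

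On TGFB1, Tdg was higher and Mbd4 lower in both genotypes. In Hmga2+/+ MEF Tdg was 1.63-fold higher, a log2 change of 0.71 (0.60 to 0.82), and Mbd4 was 1.62-fold lower, a log2 change of -0.70 (-0.81 to -0.58). In Hmga2-/- MEF the changes were 0.65 (0.53 to 0.76) for Tdg and -0.68 (-0.80 to -0.56) for Mbd4. Apex1 was higher by a log2 change of 0.25 (0.13 to 0.37) in Hmga2+/+ and 0.44 (0.32 to 0.56) in Hmga2-/- MEF, under 1.5-fold in each. The directions of the enzymes that cut 5-formylcytosine and 5-carboxylcytosine and the site left behind were therefore opposite to that of the mismatch glycosylase Mbd4. The reads of Tdg carry a further uncertainty, since 3 processed pseudogenes on chromosomes 7, 10 and 15 match its transcript, the longest over 2968 bases at 98.7% identity, and none of them has a transcript in the table. Uhrf1 has 1 such copy on chromosome X, and no copy of at least 300 bases and 95% identity was found for the other 8 genes.

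The long transcripts of all TET genes were lower on TGFB1, with the larger change in Hmga2-/- MEF. Tet1 had log2 changes of -0.58 (-0.78 to -0.39) in Hmga2+/+ and -1.26 (-1.51 to -1.02) in Hmga2-/- MEF. The first of these was 1.498-fold and just missed the count, and the second was 2.39-fold. Tet2 changed by -0.20 (-0.28 to -0.12) and -0.45 (-0.54 to -0.36), and Tet3 by -0.08 (-0.16 to -0.01) and -0.36 (-0.44 to -0.28). The order of Tet2 and Tet3 depended on the transcript, since the Tet3 transcript with the highest mean RPKM changed by -0.40 and -0.54.

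Among the methyltransferases Dnmt3a was lower on TGFB1, by -0.42 (-0.50 to -0.34) in Hmga2+/+ and -0.57 (-0.67 to -0.48) in Hmga2-/- MEF, which was 1.49-fold in the latter and just under the count. Both intervals of Dnmt3b included 0, at 0.12 (-0.14 to 0.38) and -0.01 (-0.28 to 0.27). Dnmt1 had log2 changes of -0.08 and -0.10 and Uhrf1 of -0.11 and -0.10, all with intervals below 0. On the same comparisons 15 genes of S phase, when Dnmt1 and Uhrf1 are most used, had a median log2 change of -0.02 without and 0.05 with the Hmga2 deletion, 0 of them past 1.5-fold in Hmga2+/+ MEF and Rrm2 higher in Hmga2-/- MEF.

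In Hmga2+/+ MEF 1 of the 10 genes was at least 1.5-fold higher on TGFB1 and 1 at least 1.5-fold lower, where 12.1% and 20.6% of all genes tested were. In Hmga2-/- MEF 1 was higher and 2 were lower, where 13.7% and 19% of all genes were. These counts lie near the background shares. In Hmga2+/+ MEF the median log2 change of the 10 genes was -0.10 and that of all genes -0.08. In Hmga2-/- MEF the medians were -0.23 and -0.02.

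**Figure D2:**
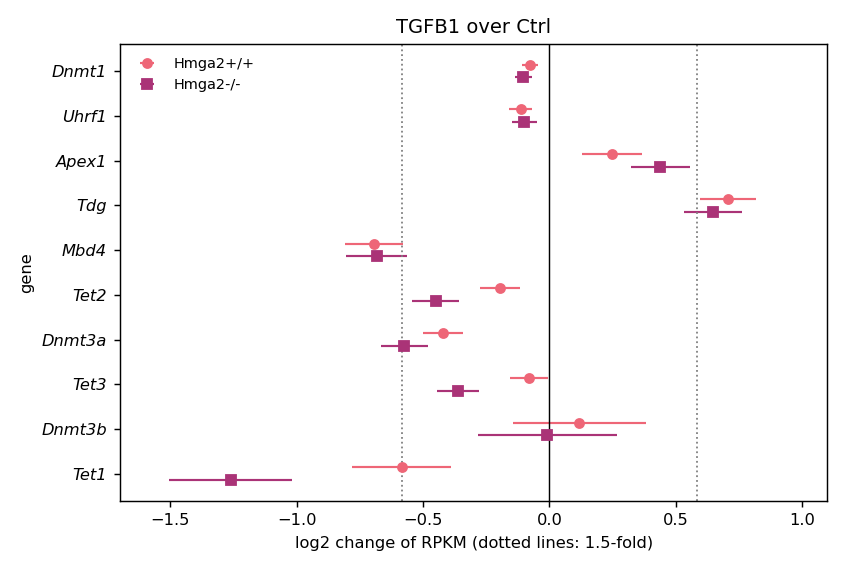
Log2 change of RPKM on TGFB1 over Ctrl for each gene in Hmga2+/+ (circles) and Hmga2-/- MEF (squares), 1 library per condition; bars are 95% intervals of the reads (counting error only) and dotted lines mark 1.5-fold. Tdg lies right of the upper line and Mbd4 left of the lower line in both genotypes, while Tet1 reaches -1.26 in Hmga2-/- MEF.

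Without TGFB1, none of the 10 genes reached 1.5-fold between genotypes, where 4.12% of all genes were higher and 3.76% lower in Hmga2-/- Ctrl. All 10 had the lower value in Hmga2-/- Ctrl, as had 53.6% of all genes, and 7 of them had an interval below 0, as had 24.2% of all genes. An interval narrows with the reads of a gene. Their median log2 difference was -0.14 against -0.02 over all genes. Dnmt3a and Tet2 differed most, by -0.30 (-0.38 to -0.23) and -0.29 (-0.37 to -0.21). Tet1 differed by -0.20 (-0.38 to -0.02), Tet3 and Dnmt1 by -0.14 each, and Mbd4 and Uhrf1 by -0.13 each. The intervals of Tdg, Dnmt3b and Apex1 included 0. In the same comparison 13 of the 15 S phase genes were lower, with a median of -0.08.

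Under TGFB1, Tet1 was 1.83-fold lower in Hmga2-/- than in Hmga2+/+ MEF, a log2 difference of -0.87 (-1.13 to -0.62), and it was the only 1 of the 10 genes to reach 1.5-fold. Of all genes 5.39% were higher and 4.06% were lower by that much. Tet2, Dnmt3a and Tet3 followed with -0.54 (-0.63 to -0.45), -0.46 (-0.55 to -0.36) and -0.42 (-0.50 to -0.34). Dnmt1, Tdg and Uhrf1 differed by -0.17, -0.15 and -0.11 with intervals below 0. Apex1 was the exception in direction, with 0.13 (0.02 to 0.24), and the intervals of Dnmt3b and Mbd4 included 0. The median over the 10 genes was -0.19, and that over all genes was 0.04. The 15 S phase genes had a median of 0.00.

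**Figure D3:**
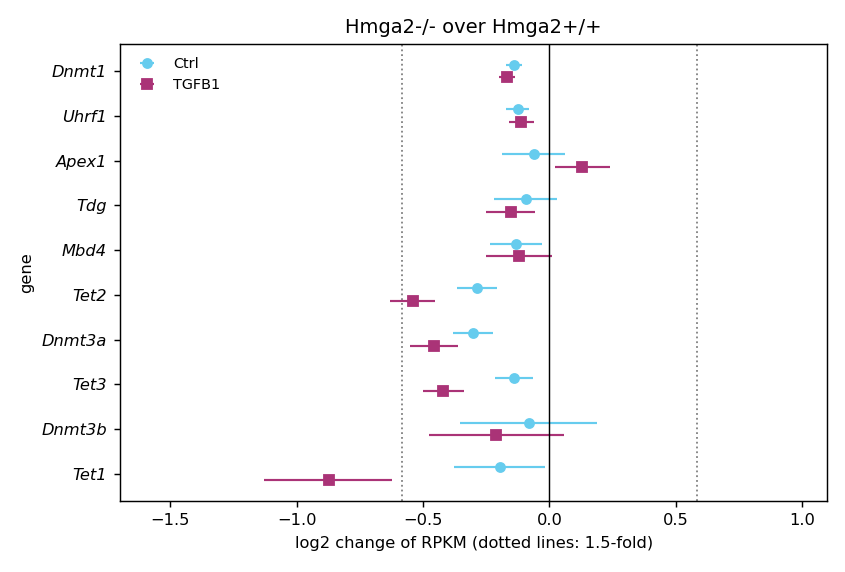
Log2 difference of RPKM, Hmga2-/- over Hmga2+/+ MEF, for each gene in Ctrl (circles) and on TGFB1 (squares), 1 library per condition; bars are 95% intervals of the reads (counting error only) and dotted lines mark 1.5-fold. All circles lie left of 0, and with TGFB1 Tet1 lies at -0.87, beyond the dotted line.

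The response to TGFB1 in Hmga2-/- minus that in Hmga2+/+ MEF uses all 4 libraries, and the comparisons above share libraries with it and with each other. It was -0.68 (-0.98 to -0.37) for Tet1 on the log2 scale, the only 1 of the 10 past 1.5-fold, where 3.73% of all genes were lower and 4.78% higher by that much. With a pseudocount of 0.1 RPKM it was -0.50 and with 1 RPKM -0.14, both short of 1.5-fold. Tet3 followed with -0.28 (-0.39 to -0.17), Tet2 with -0.25 (-0.37 to -0.13) and Dnmt3a with -0.15 (-0.27 to -0.03). Apex1 had 0.19 (0.03 to 0.36), and 0.14 with libraries scaled by the median ratio. The interval included 0 for Dnmt1 (-0.03), Uhrf1 (0.02) and Dnmt3b (-0.13), and for the glycosylases Tdg, at -0.06 (-0.22 to 0.10), and Mbd4, at 0.01 (-0.15 to 0.18). The 4 genes with an interval below 0 were the TET enzymes and Dnmt3a, as measured on their long transcripts. The share of all genes with such an interval was not computed, and an interval narrows with the reads of a gene. With the transcript of highest mean RPKM the difference of Tet3 was -0.14. The median of the 10 differences was -0.09, and that of all genes was 0.05.

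The transcripts of Tet1 were compared next. UCSC known genes place 6 on its strand, and each was counted on its own, so that reads in shared exons count for every transcript that holds them. The transcripts uc011xfg.1 and uc007fje.2 span the same 75445 bases. The latter has the length of a GENCODE transcript with 11 exons, and the former is 94 bases longer as counted, as an added exon of 96 bases at chr10:62818939-62819034 would make it. This added stretch held 2, 4, 0 and 2 reads in Hmga2+/+ Ctrl, Hmga2+/+ TGFB1, Hmga2-/- Ctrl and Hmga2-/- TGFB1, at or near the floor of 3 reads. The transcript uc007fje.2 had 0.685, 0.454, 0.600 and 0.248 RPKM, and its log2 change on TGFB1 in Hmga2+/+ MEF, -0.59, lay just past 1.5-fold where that of uc011xfg.1 lay just short of it.

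The inner transcript uc007fjf.1 (chr10:62812709-62865263, 4352 bases) begins in the intron between exons 1 and 2 of the long form. It had 1.06, 0.670, 0.860 and 0.355 RPKM in the same order. It held 47.9%, 45.5%, 44.7% and 44.2% as many reads as the long transcript, so that the share was nearly the same in the 4 libraries. Subtracting its reads from those of the long transcript left 281, 200, 262 and 111. The inner transcript begins outside the exons of the long form, so any reads in its own first stretch were subtracted too. These remainders are therefore only approximate counts for the rest of the long transcript. On TGFB1 in Hmga2+/+ MEF the remainder changed by -0.52 and the inner transcript by -0.66. In Hmga2-/- MEF the changes were -1.25 and -1.28.

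The short transcripts uc056yha.1, uc056yhb.1 and uc056yhc.1 begin upstream of the long ones and end at chr10:62879873, in the region of the first exon of the long form. All 3 had exactly 58, 41, 39 and 13 reads in the 4 libraries, and their RPKM differed only through their lengths of 427, 344 and 458 bases. The reads therefore lie where the 3 overlap and do not tell the upstream starts apart. The last exon of uc056yhc.1 in GENCODE, chr10:62879873-62880133, overlaps the first exon of the long form, chr10:62878152-62880014. Some or all of these reads can therefore come from the long form itself. Their change on TGFB1 was -0.53 (-1.14 to 0.07) in Hmga2+/+ and -1.59 (-2.62 to -0.66) in Hmga2-/- MEF, and Hmga2-/- TGFB1 was again the lowest library. In Ctrl, Hmga2-/- had fewer of these reads than Hmga2+/+ MEF, a log2 difference of -0.58 (-1.21 to 0.03) whose interval included 0. The RefSeq start in the Tet1 promoter window shown above, at 62887324, lies within the span of these short transcripts. It lies upstream of the start of the long ones, which on the minus strand is at 62880014.

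**Figure D4:**
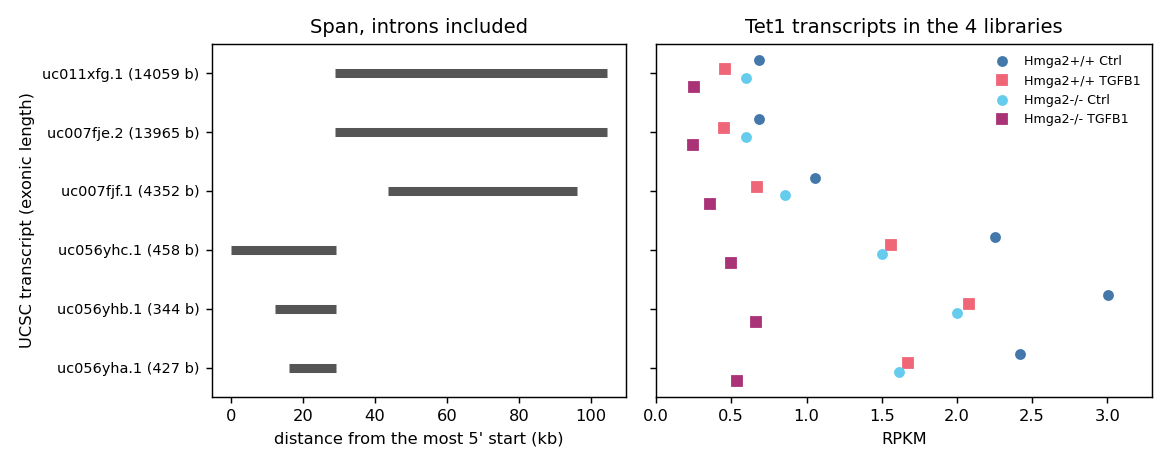
Left, span of each of the 6 Tet1 transcripts with introns, as distance in kb from the most 5′ start, with the exonic length in bases (b); right, RPKM of each in the 4 libraries, circles for Ctrl and squares for TGFB1. Every transcript is lowest in Hmga2-/- TGFB1 and highest in Hmga2+/+ Ctrl.

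Transcripts of Tet2, Dnmt3a, Dnmt1 and Tet3 also differed among themselves. The short forms uc008rkp.2 and uc008rko.2 at the 3′ end of Tet2 changed on TGFB1 by -0.36 each in Hmga2+/+ MEF, outside the interval of the long form, and by -0.36 and -0.34 in Hmga2-/- MEF, so that they did not have the larger change in Hmga2-/- MEF that the long form had. The 4 transcripts of Dnmt3a ranged from 1.46 to 5.31 RPKM in Hmga2+/+ Ctrl. The lowest, uc007mxa.2, covers the upstream end of the gene and changed by -0.80 (-1.19 to -0.42) and -1.02 (interval up to -0.56) on TGFB1 in Hmga2+/+ and Hmga2-/- MEF. The downstream start uc007mxd.1, at 3891744, held between 90.4% and 93.4% as many reads as the long transcript and changed by -0.40 (-0.48 to -0.31) and -0.54 (-0.64 to -0.44). The value of uc007mxa.2 was the larger change in both genotypes, but its interval overlapped that of uc007mxd.1 in each. Leaving out transcripts under 200 bases, the 6 of Dnmt1 ranged from 14.3 to 57.6 RPKM in Hmga2+/+ Ctrl, with uc009ojn.2 at the 3′ end the lowest. For Tet3 the transcript uc009cnl.1, which matches a GENCODE transcript of 4 exons, changed by -0.40 (-0.56 to -0.24) on TGFB1 in Hmga2+/+ MEF, where the long transcript changed by -0.08. The 9 transcripts of Dnmt3b lay between 0.966 and 1.04 RPKM in Hmga2+/+ Ctrl. Opposite-strand genes overlap several of the 10, Pip4p1 with Apex1 by 1072 bases among them, and reads were counted on the strand of the gene. Small genes on the same strand lie within Tet1, Tet3 and Dnmt1.

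The genes whose pattern over the 4 libraries was most like that of Tet1 were Zfhx4, a zinc finger homeobox factor, Apol7a and Atp5s, at distances of 0.0486, 0.162 and 0.164 between centred log2 RPKM, among 10267 genes with a mean of at least 1 RPKM. Zfhx4 had 21.6, 14.3, 19.1 and 7.62 RPKM in Hmga2+/+ Ctrl, Hmga2+/+ TGFB1, Hmga2-/- Ctrl and Hmga2-/- TGFB1. The 4 points of each pattern come from 4 libraries, and 7 genes lay within 0.2 of Tet1.

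The partners of the enzymes were read from further lists. Of 9 partners of the methyltransferases, Dnmt3l and Dppa3, genes of germ cells and early embryos, were at 0 in all 4 libraries, and none of the other 7 reached 1.5-fold in any of the 4 comparisons. On TGFB1 6 of the 7 were higher in Hmga2+/+ MEF and all 7 in Hmga2-/- MEF, with median log2 changes of 0.15 and 0.27. Dnmt1 and Uhrf1 were slightly lower, as were 56.0% of all genes in Hmga2+/+ and 51.2% in Hmga2-/- MEF by any amount. Cdca7, which works with the remodeler Hells, went from 14.0 to 20.3 RPKM in Hmga2+/+ cells and, in Hmga2-/- cells, from 12.9 to 18.5 RPKM. Usp7, which stabilizes DNMT1, went from 31.8 to 41.8 and from 34.5 to 44.6 RPKM.

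TET enzymes need 2-oxoglutarate, which isocitrate dehydrogenases make. On TGFB1 Idh2 went from 53.0 to 23.1 RPKM in Hmga2+/+ cells and, in Hmga2-/- cells, from 63.5 to 25.3 RPKM, and Idh1 from 38.7 to 19.9 and from 32.5 to 18.4 RPKM. Idh3a, a subunit of the NAD-dependent enzyme, went the other way, from 19.9 to 32.5 and from 22.4 to 38.6 RPKM. Of the 7 genes on this list with at least 0.1 RPKM, 1 was higher and 3 were lower past 1.5-fold on TGFB1 in each genotype, and none between genotypes. The third lower gene, D2hgdh, was named after its values were seen, and had 0.700, 0.410, 0.638 and 0.413 RPKM. Cxxc4, Nanog and Prdm14 of this list had means under 0.1 RPKM.

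Among 19 further genes of base excision repair, 0 were higher and 2 lower past 1.5-fold on TGFB1 in Hmga2+/+ MEF, and 1 higher and 3 lower in Hmga2-/- MEF. Neil3, a glycosylase for oxidized bases, was lower in both, from 20.6 to 11.5 and from 18.3 to 11.9 RPKM. Xrcc1, the scaffold of the pathway, went from 11.6 to 7.24 RPKM in Hmga2+/+ cells and, in Hmga2-/- cells, from 10.4 to 8.79 RPKM. In Hmga2-/- MEF Ung, the uracil glycosylase, went from 1.26 to 1.89 RPKM and Neil1 from 2.17 to 1.44 RPKM. Neil2, named after its values were seen, had a mean of 0.118 RPKM. It was the gene past 1.5-fold higher in Hmga2-/- Ctrl, the 1 lower in Hmga2-/- TGFB1 against Hmga2+/+ TGFB1, and the last of the 3 lower on TGFB1 in Hmga2-/- MEF. The median of the 19 genes on TGFB1 was -0.11 and -0.12 in Hmga2+/+ and Hmga2-/- MEF.

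The GADD45 proteins, adaptors that have been linked to active demethylation, included the gene with the largest change on TGFB1 among those of the pathway lists with a mean of at least 1 RPKM. Gadd45a went on TGFB1 from 12.3 to 79.2 RPKM in Hmga2+/+ cells and, in Hmga2-/- cells, from 14.2 to 76.9 RPKM, log2 changes of 2.68 and 2.44. Gadd45g went from 7.06 to 12.2 and from 11.3 to 23.6 RPKM, and Gadd45b from 5.98 to 8.10 and from 5.98 to 14.5 RPKM. Of the 4 genes, with their partner Ing1, 2 were past 1.5-fold higher in Hmga2+/+ and 3 in Hmga2-/- MEF, and 0 were lower. Between genotypes Gadd45g was past 1.5-fold higher in Hmga2-/- MEF in Ctrl, and Gadd45b and Gadd45g on TGFB1. Gadd45a thus differed little between genotypes, by 0.20 in Ctrl and -0.04 on TGFB1.

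The methyl donor cycle supplies S-adenosylmethionine to the methyltransferases. Of its 12 genes with at least 0.1 RPKM, 4 were higher and 0 lower past 1.5-fold on TGFB1 in Hmga2+/+ MEF, and 6 higher and 1 lower in Hmga2-/- MEF, with medians of 0.46 and 0.57. Shmt2 went from 14.8 to 47.7 and from 15.9 to 45.7 RPKM, Mthfd2 from 15.9 to 32.9 and from 13.6 to 34.1 RPKM, and Mtrr from 5.62 to 10.3 and from 5.67 to 9.86 RPKM. Mat2b, the regulatory subunit of the enzyme that makes S-adenosylmethionine, went from 8.47 to 6.82 and from 10.2 to 6.65 RPKM. None of the 12 reached 1.5-fold between genotypes, and Gnmt had a mean under 0.1 RPKM.

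Of 9 genes from families that include readers of methylated CpG, 1 was lower past 1.5-fold on TGFB1 in each genotype and 0 were higher. This was Mbd6 in Hmga2+/+ MEF, from 4.08 to 2.54 RPKM, and Zbtb4 in Hmga2-/- MEF, from 3.58 to 2.25 RPKM. None differed by that much between genotypes. The deaminase Apobec2 was at 0. Apobec1 went from 2.80 to 4.25 RPKM and Apobec3 from 5.59 to 3.62 RPKM on TGFB1 in Hmga2-/- MEF, and neither reached 1.5-fold in the other comparisons.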

How the data were processed

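The table holds RNA-seq of 4 MEF libraries, 1 for each combination of Hmga2 genotype and treatment. The authors trimmed reads (Trimmomatic), aligned them to mm10 (HISAT2 2.1.0, per the labels) and deposited RPKM from HOMER, counted on the annotated strand of UCSC known genes. The header names exons as the counted feature and the methods name genes. Whether duplicates were pooled is not given in the sources used here.

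A transcript took the name of a same-strand gene of GENCODE vM21 that covers at least 50% of its span, which named 57708 of 63759 (90.5%). Each gene was represented by its transcript with the longest gene body, ties going to the longer exonic length. RPKM of 0 was set to 0.001. Mapped reads were derived as the depth at which values of transcripts under 600 bases gave whole reads: 56140000 in Hmga2+/+ Ctrl, 57300000 in Hmga2+/+ TGFB1, 56610000 in Hmga2-/- Ctrl and 56940000 in Hmga2-/- TGFB1, with 100% of values within 0.1 of a whole read. At these depths 3 reads on 1000 bases are between 0.0524 and 0.0534 RPKM. The derived reads gave exact conditional binomial (Clopper-Pearson) intervals of ratios, exact Poisson intervals of levels, and approximate Poisson intervals of the genotype difference in response, all for counting error only. No count test was run, since each condition has 1 column of values.

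The 10 genes and 14 pathway and marker lists were chosen with earlier results of these data known. Named genes are the 10, every Tet1 transcript, up to 3 per list with the largest change in each direction and comparison at a mean of at least 1 RPKM, the 3 most like Tet1 by Euclidean distance, Hmga2 and TGFB1 targets. Some genes that the rule covers are left out of the text. Copies were sought among GENCODE transcripts with BLAST+ 2.17.0. Python 3.11.15, numpy 2.4.6, pandas 2.3.3, scipy 1.17.1 and matplotlib 3.10.9 were used, and the steps were tested on simulated data. Alternatives changed the pseudocount, scaling, transcript, threshold and minimum level.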

Additional observations from a re-analysis of the deposited data

Results flagged for a closer look

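Dnmt3b was the gene whose responses to TGFB1 had opposite signs in the 2 genotypes, a log2 change of 0.12 (-0.14 to 0.38) in Hmga2+/+ and -0.01 (-0.28 to 0.27) in Hmga2-/- MEF, from 1 library per condition. Both intervals include 0, and the difference between genotypes, -0.13 with a counting interval of -0.50 to 0.24, was not tested over replicates.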

How the results depend on the processing

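No paired analysis was possible because each condition has 1 library, and for the same reason no library could be left out. Of 72 recomputed counts of genes past 1.5-fold, 60 stayed within 1.5 times the reported count and 12 did not. With a pseudocount of 1 RPKM, 0 of the 10 genes were lower on TGFB1 in Hmga2+/+ MEF, 0 higher and 0 lower on TGFB1 in Hmga2-/- MEF, and 0 lower in Hmga2-/- under TGFB1. With a threshold of 2-fold, 0 were higher and 0 lower on TGFB1 in Hmga2+/+ MEF, 0 higher and 1 (Tet1) lower in Hmga2-/- MEF, and 0 lower in Hmga2-/- under TGFB1. With a mean of at least 1 RPKM, which leaves out Tet1 and Dnmt3b, 1 was lower on TGFB1 in Hmga2-/- MEF and 0 lower in Hmga2-/- under TGFB1. With the shortest of the transcripts tied for the longest gene body, an alternative chosen after seeing the data, 2 were lower on TGFB1 in Hmga2+/+ MEF, Tet1 and Mbd4. No called value changed sign, and 223 of 240 recomputed changes of single genes stayed within their reported interval. With the transcript of highest mean RPKM, the log2 difference of Tet1 in Hmga2-/- under TGFB1 was -1.65 and that in Ctrl -0.58, from a short transcript. The reads of that short transcript can also come from the long form. Scaling by the median ratio moved log2 changes between 2 libraries by at most 0.03 and added Dnmt3a to the genes lower on TGFB1 in Hmga2-/- MEF, 3 in all. It moved the genotype difference in response of Tet1 from -0.68 to -0.73 and that of Dnmt1 from -0.03 to -0.08, outside its reported interval. With the transcript of highest mean RPKM the mean levels of Tet1 (1.94 RPKM), Tet3 (4.44), Dnmt1 (53.3), Dnmt3b (1.03) and Mbd4 (5.83) moved beyond counting error, and the genotype difference in response of Tet1 was -1.06. With a pseudocount of 1 RPKM that difference was -0.14, and with 0.1 RPKM -0.50. For Tet1 and Dnmt3b the reads limit what can be seen.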
